A study of Mus musculus with 4 samples.

Results

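The subtelomeres of the autosomes, the stretches next to the chromosome ends, were described here in the list of ATAC-seq peaks of the TRAFTAC dataset. A peak was taken as subtelomeric if, on chromosomes 1 to 22, it began within the first 500 kb of the chromosome or ended within 500 kb of the highest peak end of that chromosome. The short-arm ends of the acrocentric chromosomes 13, 14, 15, 21 and 22 were left out, which gave 39 windows, 17 on short arms (p) and 22 on long arms (q). They held 821 of the 46452 autosomal peaks and of the 48751 peaks of the list. The windows make up 0.679% of the autosomal length up to the last peaks, and their peaks 1.77% of the autosomal peaks.

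In ATAC-seq, accessible DNA is cut and tagged by the transposase Tn5, and peaks mark places where the resulting fragments pile up above their surroundings. The libraries came from HEK293 cells, an established human embryonic kidney line that serves here as a transfection host. All 4 libraries came from cells transfected for 6 h with a plasmid that encodes a dCas9 fusion protein with a HaloTag7 and with a TRAFTAC at 25 nM, and then given 5 ng/mL of TNF-alpha for 19 h. In 2 libraries the TRAFTAC, a chimera that brings a transcription factor to the degradation machinery, was directed against NFkB, and in the other 2 it was scrambled. HP14 at 25 μM, the PROTAC that binds the HaloTag, was given with TNF-alpha according to the series' design, although the protocol in the labels also names DMSO without saying for which library. Peaks were called on the 4 libraries merged, so no value belongs to a single library, no replicate error exists and the TRAFTACs cannot be compared. The labels name the mouse, but 105 of the subtelomeric peaks lie on chromosomes 20 to 22, which the mouse lacks. The list carries no gene names, so neither the cell line nor genes could be checked or named.

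Human chromosomes end in telomeres, long tracts of a short tandem repeat bound by the shelterin complex. Next to them lie subtelomeres, a patchwork of segments duplicated between chromosome ends, in which genes, pseudogenes and the starts of the telomeric transcript TERRA are found. Because such segments resemble each other closely, short reads from them can be placed on more than one end, and some ends are incompletely assembled. Farther in, the terminal bands of many human chromosomes are rich in genes and in GC.

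The first question was whether peaks were more frequent at the ends than elsewhere. Subtelomeric peaks had a density of 42.1 per Mb (95% Poisson interval 39.3 to 45.1), against 16.0 per Mb (15.8 to 16.1) in the rest of the autosomes, or 2.63 times as many. All intervals given here cover counting error alone, and peaks next to each other may not be independent. Intervals of ratios cover only the counting error of the first group and are therefore too narrow. Of the 39 windows, 37 were denser than the rest of their own chromosome, and in 28 the whole Poisson interval of the window lay above it. The exceptions were 3p, with 4 peaks and 0.734 times the density of the rest, and 1q, with 8 peaks and 0.803 times. In no window, in 0 of 39, did the whole interval lie below the rest of the chromosome. The other extreme was the long arm of chromosome 13, where 44.0 peaks per Mb stood against 7.10 in the rest, a ratio of 6.20. On 4q the ratio was next highest, at 5.40. The rest was counted from the first base, so on acrocentric chromosomes it includes the short arm, which was left out of the windows. This can raise their ratios, that of 13q included, and the 2.63. How much of these short arms is assembled was not examined. The median ratio over the windows was 2.37.

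**Figure D1:**
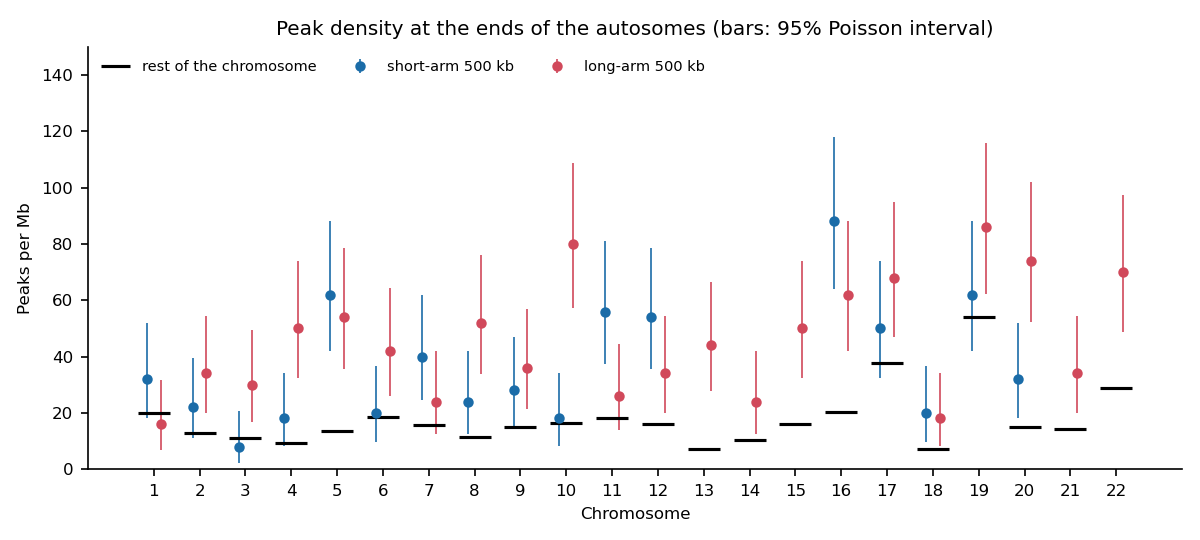
Peaks per Mb in the outer 500 kb of each short arm (blue) and long arm (red), with 95% Poisson intervals as bars, for chromosomes 1 to 22. The black lines give the rest of each chromosome, and only 3p and 1q lie below their line.

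The higher density was not limited to the outer 500 kb. The next 500 kb inward held 920 peaks, or 47.2 per Mb (44.2 to 50.3), more than the 821 of the subtelomeres. The interval of the subtelomeres (39.3 to 45.1) overlaps with it narrowly. The short-arm windows also count their first bases, although no peak there began before base 9994. In 20 of the 39 arms the subtelomere had fewer peaks than this neighbouring stretch, in 17 it had more, and in 2 the numbers were equal. From 2.0 to 2.5 Mb the density over all ends had fallen to 29.4 per Mb, and from 5.5 to 6.0 Mb to 16.7 per Mb, after which it rose again, to 24.4 per Mb from 8.0 to 8.5 Mb. The subtelomeres thus formed the outer part of a dense zone some megabases deep, and did not stand out as its densest part.

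**Figure D2:**
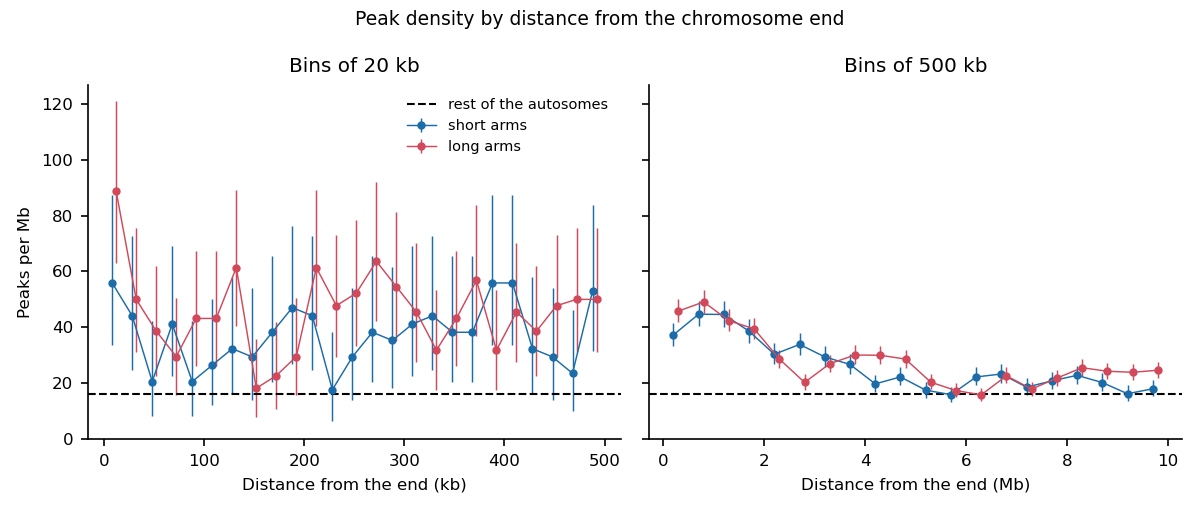
Peaks per Mb by distance from the chromosome end in bins of 20 kb (left) and 500 kb (right), for short arms (blue) and long arms (red), with 95% Poisson intervals and the rest of the autosomes as a dashed line. The outermost bin of 20 kb stands highest on the long arms, at 88.6 per Mb, where it counts the peak that sets each end. Both curves on the right come near the dashed line of 16.0 between 5.5 and 6.5 Mb. They then rise again, to 25.5 per Mb on the long arms from 8.0 to 8.5 Mb.

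Windows differed widely in their number of peaks, from 4 on 3p to 44 on 16p, with a median of 18. The richest were 16p with 44 peaks, 19q with 43 and 10q with 40, and the poorest 3p with 4 and 1q with 8, followed by 4p, 10p and 18q with 9 each. The 6 richest windows held 233 peaks, or 28.4% of all. Across the 39 windows, the density of a window and that of the rest of its chromosome had a Spearman rho of 0.47 and a Pearson r of 0.52, given as a description, since both ends of a chromosome share the second value. Across the 17 chromosomes with both ends, the number of peaks on the short and on the long arm had a rho of 0.21 and an r of 0.29, so a rich short arm was only weakly paired with a rich long arm. The longest stretch without a peak was 228 kb on 18p, followed by 217 kb on 2p and 207 kb on 20p, whereas on 19q the longest was 26.9 kb.

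Subtelomeric peaks resembled other autosomal peaks in their median strength and width. Their median width was 644 bp (95% interval of the median 592 to 688 bp, quartiles 371 and 1035 bp), against 590 bp (585 to 595 bp) in the rest of the autosomes. The fold enrichment, which the peak caller gives at the summit as a ratio over the local background, had a median of 5.29 (4.96 to 5.61, quartiles 3.19 and 9.10), against 5.68 (5.60 to 5.74). The median −log10 q-value, which measures how improbable the fragments at the summit are under that background after correction for the number of positions tested, was 24.5 (20.5 to 28.7), against 23.7 (22.9 to 23.8). The intervals of the −log10 q-value overlap, those of the fold enrichment overlap narrowly, and those of the width do so as well.

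The similar medians hid broader tails. By −log10 q-value, 219 subtelomeric peaks, or 26.7% (95% Wilson interval 23.8% to 29.8%), reached 100, against 21.5% of all peaks in the list. At the other end, 140 or 17.1% (14.6% to 19.8%) had a value under 5, against 13.5% of the list. A value of 1000 was reached by 13 of the 821 (1.58%, interval 0.928% to 2.69%), by 0.105% of the list and by 0.057% of the rest of the autosomes. Of these 13, 6 lay on 19q. Short arms were near the list at 100 and under 5, with 20.5% and 14.5%, and long arms had 30.6% and 18.7%. On short arms 3 of 317 peaks, or 0.946%, reached 1000. By fold enrichment the upper tail was not longer, with 183 peaks or 22.3% (19.6% to 25.3%) at 10 or more, against 21.8% of the list. The share of peaks at least 1000 bp wide was 27.2% (24.2% to 30.3%), against 22.9% of the list, and that of peaks narrower than 300 bp 12.7% (10.6% to 15.1%), against 14.4%.

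For all 821 subtelomeric peaks, the number of fragments at the summit and the background level could be worked out from the deposited fold and p-value. A median of 67 fragments (95% interval 58 to 75) were stacked at the summit over the 4 libraries together, against 56 in the rest of the autosomes, and the lowest number was 16. The local background had a median of 11.9 fragments (11.0 to 12.8), against 8.52 (8.43 to 8.60), and was thus 1.40 times as high. It counts the fragments of the peaks themselves and of their neighbours, so it moves with the density and the height of the peaks, and the part of either in the difference was not tested. Peaks whose background reached 10 times the lowest level, the genome-wide 6.32 fragments, are called high-background peaks here. They numbered 35 among the subtelomeric peaks, or 4.26% (3.08% to 5.87%), against 1.6% of the list and 1.26% of the rest of the autosomes. Only 18 of the 35 were among the 778 subtelomeric peaks outside 19q, so the share rests in large part on 1 arm.

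Long arms had more subtelomeric peaks than short arms. On the 22 long arms 504 peaks gave 45.8 per Mb (41.9 to 50.0), and on the 17 short arms 317 peaks gave 37.3 per Mb (33.3 to 41.6), a ratio of 1.23. The intervals do not overlap, but by a narrow margin. When only the 17 chromosomes with both ends were counted, 393 peaks on long arms stood against 317 on short arms, with the long arm ahead in 10 chromosomes and the short arm in 7, so that single chromosomes went both ways. Chromosome 10 was the most uneven, with 9 peaks on the short and 40 on the long arm. Chromosome 18 was nearly even, with 10 and 9. The 2 ends are not measured alike, because a short arm was counted from the first base of the assembly and a long arm from the last peak. With short arms counted from their lowest peak start, the ratio was 1.12.

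Peaks of long arms were also somewhat higher by fold enrichment, with a median of 5.51 (5.06 to 5.88) against 4.90 (4.37 to 5.59) on short arms, with overlapping intervals. The median −log10 q-value was 28.4 (22.1 to 36.3) on long arms and 21.2 (16.97 to 25.1) on short arms, and the median width 660 bp (589 to 721 bp) and 623 bp (546 to 673 bp), again with overlapping intervals. The long arm had the higher median fold enrichment in 11 of the 17 chromosomes with both ends and the higher median −log10 q-value in 11. The arms also differed in the share of strong peaks. Of the long-arm peaks 154, or 30.6% (26.7% to 34.7%), reached 100 by −log10 q-value, and of the short-arm peaks 65, or 20.5% (16.4% to 25.3%), against the 21.5% of the list. Of the 154, 26 lay on 19q, so the difference rests in part on 1 arm, and the long-arm share without it is not given here. Of the high-background peaks, 33 lay on long arms, or 6.55% of the peaks there. On short arms there were 2, or 0.631%, against the 1.6% of the list. Without 19q, an arm that stood apart from the others in its local background, 16 of 461 long-arm peaks, or 3.47%, were high-background peaks. The ratio of long to short arms was then 1.18 for the density and 1.29 for the median −log10 q-value, and the interval of the latter (0.945 to 1.62) includes 1.

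With the peaks that set the long-arm ends counted, the outermost 20 kb differed from the rest of the windows in density, strength and shape. It held 58 peaks, or 74.4 per Mb (56.5 to 96.1), against 40.8 per Mb (37.9 to 43.8) from 20 to 500 kb. Their median fold enrichment was 8.46 (6.29 to 11.9), against 5.11 (4.78 to 5.53) farther in, and their median −log10 q-value 92.9 (54.4 to 151) against 22.7 (19.2 to 27.2). They were narrower, with a median width of 531.5 bp (397 to 597 bp) against 657 bp (609 to 700 bp). In all 4 measures the intervals do not overlap, but 22 of the 58 peaks set a long-arm end and lie there by definition. Without them the higher density and the higher fold enrichment were not clear, as given below. With both arms pooled, the 24 bins of 20 kb farther in had lower densities (23.1 to 53.8 per Mb), median folds (3.32 to 7.39) and median −log10 q-values (7.96 to 55.3), while the median width was lower still in some, such as 421.5 bp from 420 to 440 kb. Arm by arm this was less clear. On short arms the bins from 380 to 400 and 400 to 420 kb were as dense as the outermost, at 55.9 per Mb. On long arms the bins from 60 to 80 kb (13 peaks) and 140 to 160 kb (8 peaks) had median folds of 11.9 and 10.1 and median −log10 q-values of 93.5 and 130, above the 8.09 and 79.9 of the outermost. At the edge of the zone, the last peak counted began 19.9 kb from the end of 2p (fold enrichment 4.78) and the next began 20.6 kb from the end of 7p (5.67). At the inner edge of the windows, the last peak inside lay on 8q (6.84) and the first outside on 22q (4.42).

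On short arms, where no peak sets the end, the outermost 20 kb held 19 peaks, or 55.9 per Mb (33.6 to 87.3), against 36.5 (32.5 to 40.9) farther in, and the intervals overlap. Their median fold enrichment was 11.9 (3.63 to 16.6) against 4.85 (4.29 to 5.49), and their median −log10 q-value 184 (26.9 to 551) against 19.4 (15.8 to 24.2), so that only the −log10 q-value had separate intervals. On long arms the peak that ends last is in the zone by definition. Without it, the zone held 38.6 peaks per Mb (22.5 to 61.9) there, over its full length, against 44.0 (40.1 to 48.2) farther in. With all arms pooled and these 22 peaks left out, the zone was 1.13 times as dense as the rest of the windows, and its interval (0.793 to 1.57 times) includes 1. No short-arm peak began before base 9994, so the first part of the short-arm zone was empty. That length counts in the short-arm and the pooled density, which it lowers, and densities without it are not given here. Without the 22 peaks, the median fold enrichment of the zone was 1.51 times that farther in, with an interval (0.882 to 2.32 times) that also includes 1. The median −log10 q-value was 4.08 times as high (1.35 to 8.11 times). The higher −log10 q-value thus held in the 36 remaining peaks pooled, whereas the higher fold enrichment was not clear in them. On long arms alone the higher −log10 q-value was not clear. The 17 remaining peaks there had a median of 76.4 (10.9 to 97.6), against 27.2 (19.5 to 34.2) farther in. Of these 17, 4 or 23.5% (9.56% to 47.3%) reached 100, against 29.9% (25.9% to 34.2%) farther in on long arms and 21.5% of the list.

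Among the strong peaks, those of the outermost 20 kb were narrower, with the peaks that set the long-arm ends counted. Over the rest of the autosomes, strong peaks are wide, with a median width of 1101 bp where the −log10 q-value reached 100 and of 307 bp where it was under 5. Among subtelomeric peaks that reached 100, the median width was 589 bp (445 to 852 bp) in the 27 peaks of the outermost 20 kb and 1041.5 bp (1006 to 1121 bp) in the 192 peaks farther in, with a median fold enrichment of 14.8 (12.7 to 18.4) and 11.8 (11.1 to 12.3). With a −log10 q-value from 20 to 100 the widths were 413 bp (349 to 717 bp) in 17 peaks and 728.5 bp (677 to 801 bp) in 208, and from 5 to 20 the outermost peaks were the wider ones, with 542 bp (352 to 747 bp) in 9 peaks against 475.5 bp (427 to 531 bp) in 228. In both of these classes the intervals overlap. The narrower width was thus clear for the class reaching 100 and not for the others. Of the 27 outermost peaks in that class, however, 11 set a long-arm end and lie there by definition. The width of the class without them is not given here. Over all classes, leaving out the peaks that set the ends gave a median width 0.792 times that farther in (0.536 to 0.930 times).

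**Figure D3:**
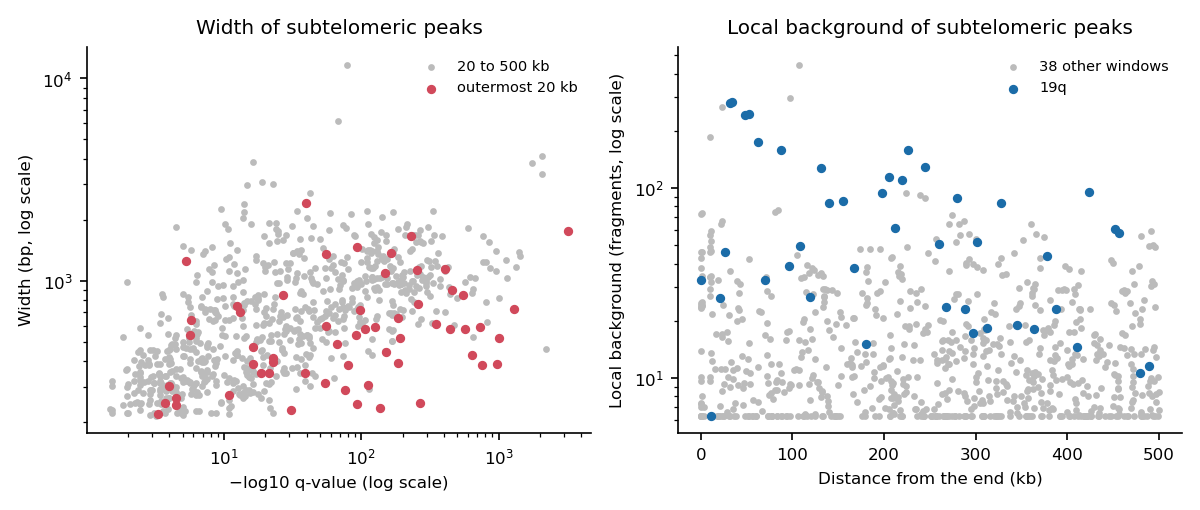
Left, width against −log10 q-value of the 821 subtelomeric peaks on log scales, with the 58 peaks of the outermost 20 kb in red, whose median width is lower than that of the others (grey) among peaks reaching 100. Right, local background on a log scale against distance from the end, with the 43 peaks of 19q in blue, of which 17 are high-background peaks.

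On the short arms the outermost peaks lay in nearly the same place. Of the 17 short arms, 11 had a peak in the outermost 20 kb, and 9 of these began between bases 9994 and 10065, on 1p, 3p, 5p, 7p, 9p, 10p, 12p, 16p and 18p. Earlier starts did not occur, so the zone on short arms holds peaks only from base 9994 on. On 2p the outermost peak began at 10891 and on 4p at 11771. In the 11 arms these peaks had a median fold enrichment of 14.8 and a median −log10 q-value of 348, and 10 of the 11 had a fold enrichment of at least 10, which 21.8% of all peaks in the list had.

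The outermost peak of 7p, from 9994 to 10242, had the highest fold enrichment of the short arms, 25.0, with 264 fragments over a background of 9.61. That of 1p, from 9997 to 10517, had a fold of 19.8, with 1133 fragments over a background of 56.3. The outermost peak of 5p, from 10028 to 11789, had a fold of 19.6 and was the strongest of all subtelomeric peaks by −log10 q-value, with 3650 fragments at a summit 1344 bp inside its outer edge. The peak of 9p, from 10065 to 10916, was the exception, with a fold of 3.63, and the next peak of that arm was the higher one. The other 7 of these arms lay closer together, with a fold of 18.4 on 3p, 16.6 on 10p, 14.8 on 12p, 13.6 on 2p, 13.5 on 18p, 12.8 on 16p and 11.9 on 4p.

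The remaining 6 short arms had no peak in this zone, and their outermost peaks were of ordinary strength in most cases. They began at base 60143 on 20p, 60567 on 19p, 83008 on 8p, 117154 on 17p, 147885 on 6p and 175384 on 11p. Their fold enrichment was 2.73 on 20p, 2.87 on 8p, 3.69 on 19p, 6.29 on 11p, 7.62 on 17p and 13.6 on 6p. Only the last of these exceeded 10. How far the assembled sequence reaches on these arms was not examined, since the GRCh38 sequence was not used here.

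On the long arms the peak that ended last varied more. Over the 22 arms its fold enrichment ranged from 2.91 on 3q to 25.2 on 12q, with a median of 10.0, and 11 of the 22 were at 10 or more. The peak of 12q, from 133264931 to 133265316, had the highest fold of all 821 subtelomeric peaks, with 977 fragments at its summit over a background of 37.8 and a width of 386 bp. High values were also found on 1q (19.8), 18q (19.6), 13q (19.4), 17q and 22q (both 18.3) and 15q (16.3). The lowest were those of 3q (2.91), 8q (3.01), 20q (4.92) and 14q (5.47), near or below the median of all subtelomeric peaks. The long-arm ends thus covered the whole range from weak to very strong peaks. Of the 10 subtelomeric peaks with the highest fold enrichment, 6 lay in the outermost 20 kb (1p, 1q, 5p, 7p, 12q and 18q), which holds 7.06% of the peaks. Those of 1q, 12q and 18q set their long-arm end and so lie there by definition. The 7.06% also counts all 22 peaks that set an end.

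**Figure D4:**
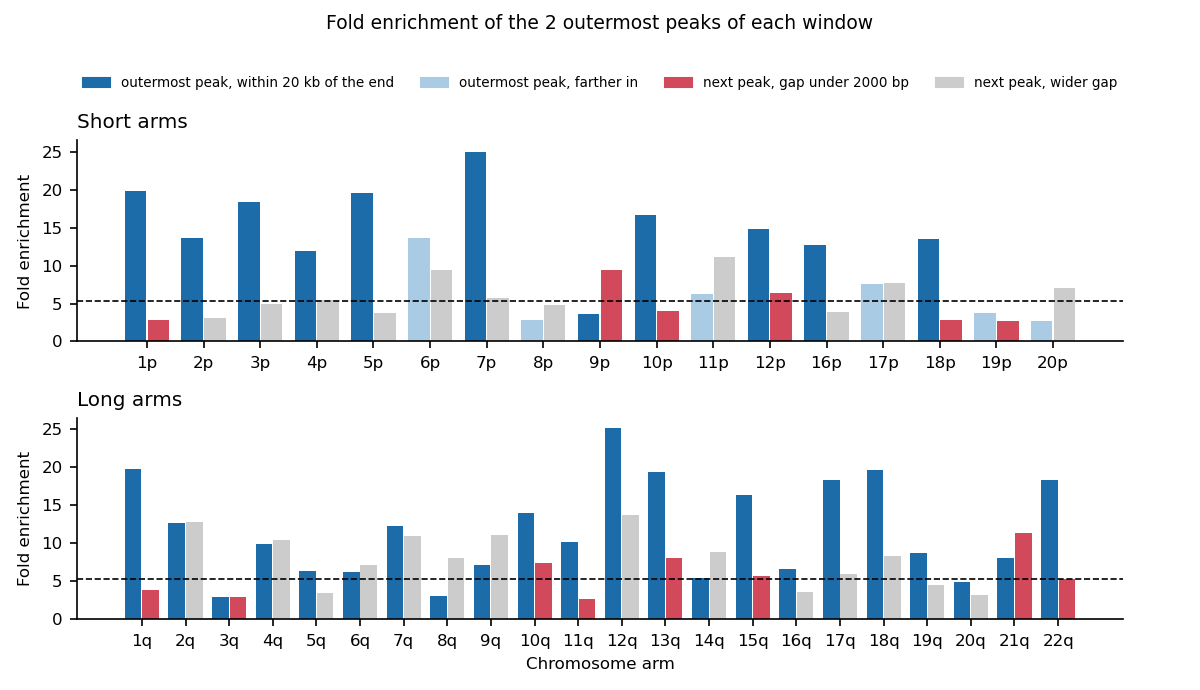
Fold enrichment of the outermost peak of each window (blue, light blue where it lies more than 20 kb from the end) and of the next peak inward (red where the gap to it is under 2000 bp, grey otherwise), with the median of all subtelomeric peaks, 5.29, as a dashed line. On short arms, dark blue bars exceed 10 in 10 of 11 cases, and 13 arms have a dark blue bar with a red neighbour.

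A pair of peaks recurred at the ends. Of the 33 arms with a peak in the outermost 20 kb, 13 had the next peak less than 2000 bp away, 5 on short arms (1p, 9p, 10p, 12p and 18p) and 8 on long arms (1q, 3q, 10q, 11q, 13q, 15q, 21q and 22q). Among all neighbouring peaks of the autosomes 7.80% of gaps were that short. The windows hold 42.1 peaks per Mb against 16.0 in the rest, so short gaps may be more frequent there. Their share within the windows is not given here. In 11 of the 13 pairs the 2 summits lay 1200 to 1545 bp apart, and over the 13 pairs the distance ranged from 820 bp on 9p to 3202 bp on 3q. The outer peak had the higher fold in 11 of the 13, with 9p and 21q as the exceptions. On 1p the fold was 19.8 and 2.89, on 12p 14.8 and 6.37, on 22q 18.3 and 5.30, and on 21q 8.09 and 11.4. In the other 20 arms the next peak lay from 3.58 kb away on 14q to 186 kb on 3p. Whether the paired ends share sequence was not examined. The limit on gaps and the range of summit distances were chosen after the values had been seen.

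Farther in, the strongest subtelomeric peaks were spread over few arms. Of the 10 with the highest −log10 q-value, 2 were outermost peaks (5p, at 3218, and 1q, at 1297) and 4 lay on 19q. The second was a narrow peak on 11q, from 134851684 to 134852142, with a −log10 q-value of 2199, a fold enrichment of 23.8 and 2280 fragments at its summit, in an arm whose median fold was 3.83. The next were 3 broad peaks, on 18p from 106755 to 110911, on 10q from 133686956 to 133690340 and on 4q from 190177420 to 190181237. They were 4157, 3385 and 3818 bp wide, with fold enrichments of 8.51, 10.9 and 10.4. They stood on the highest backgrounds outside 19q, at 447, 296 and 269 fragments.

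The windows of 10q and 4q also held the runs of neighbouring peaks with the most members. In runs with gaps of at most 5 kb, a limit set after the data had been seen, 10q had 7 peaks over 25.6 kb, from 133664695 to 133690340, and 4q had 6 over 14.6 kb, from 190068381 to 190082954. Both arms are known to carry arrays of the macrosatellite repeat D4Z4 near their ends, which is given as background, as the peaks were not matched to it. The start spacings in the run of 10q ranged from 2565 to 5733 bp. Within it, the 4 peaks that began at 133671359, 133674663, 133677811 and 133681223 followed each other at 3304, 3148 and 3412 bp, had widths from 672 to 751 bp and fold enrichments from 1.99 to 2.41. A further set began at 133740755, 133744080 and 133747549 on the same arm, with spacings of 3325 and 3469 bp, and the next peaks there followed at 5820 and 8852 bp. These series were picked from unevenly spaced peaks after their values had been seen. On 4q, the peaks that began at 190072782 and 190076075 were 3293 bp apart, and the other spacings of that run ranged from 1206 to 4953 bp. The peaks in these series were weak by fold over a raised background. Those 4 of 10q had 80 to 89 fragments at their summits over backgrounds of 33.5 to 44.2, against the genome-wide 6.32.

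The widest subtelomeric peak lay on 15q, from 101752639 to 101764354, and was 11716 bp wide. Its fold enrichment was 5.27 and its −log10 q-value 78.5, so its width came without exceptional strength. It was wider than any peak in the rest of the autosomes, where the maximum was 8448 bp. A peak of 6192 bp followed on 17p, from 121793 to 127984, with a fold of 7.65. The other of the 5 widest that has not been named lay on 6q, from 170656870 to 170660730, with a width of 3861 bp, a fold of 5.47 and only 39 fragments at its summit.

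The window of 19q stood apart from the other 38 in its median −log10 q-value and its local background. Its 43 peaks had a median −log10 q-value of 233, whereas the rest of chromosome 19 had 27.4, and its median width was 915 bp against 608 bp. Of the 43 peaks, 26 or 60.5% reached a −log10 q-value of 100, against 26.3% of the 3120 peaks in the rest of that chromosome and 21.5% of the list. Neither this share nor the width was particular to 19q. On 4p 6 of 9 peaks reached 100, and on 12q 10 of 17. The median width was 1176 bp on 18q and 1016 bp on 1q. The local background was raised over most of the window, with a median of 50.9 fragments against 13.3 in the rest of the chromosome, and the next highest median of any window was 27.8, on 5q. Of the 35 high-background peaks 17 lay on 19q, and of the 13 peaks that reached 1000 by −log10 q-value, 6 did. The strongest peak of the arm, from 58543682 to 58545012, had 2116 fragments at its summit over a background of 176. The terminal part of this arm is known for its clusters of zinc finger genes, but the list names no genes and none was assigned to these peaks.

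Along the long arm of chromosome 19 the values did not fall evenly. The median local background was 50.9 fragments in the outermost 500 kb, 19.8 in the next 500 kb and 20.8 in the one after it. The share of peaks reaching 100 by −log10 q-value was 60.5%, 41.0% and 43.6% in these 3 bins and 0 of 17 peaks, or 0%, in the fourth. The background thus dropped most at the inner edge of the window, and the share of strong peaks between the third and the fourth bin. From 5.5 to 7.0 Mb the share was again 54.5%, 50.0% and 50.0%, with median folds of 10.4, 9.53 and 8.97, above the 7.84 of the window, at backgrounds of 13.7 to 17.2 fragments. The median background was 13.3 fragments in the chromosome outside the window and 8.52 in the rest of the autosomes. A second stretch of high background, with a median of 41.0 fragments, lay 3.0 to 3.5 Mb from the end. The part of the raised background in the values of the window was not tested. Without 19q, the subtelomeric peaks had a median fold enrichment of 5.20 and a median −log10 q-value of 23.3, and 24.8% of the remaining 778 reached 100, against 21.5% of the list.

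**Figure D5:**
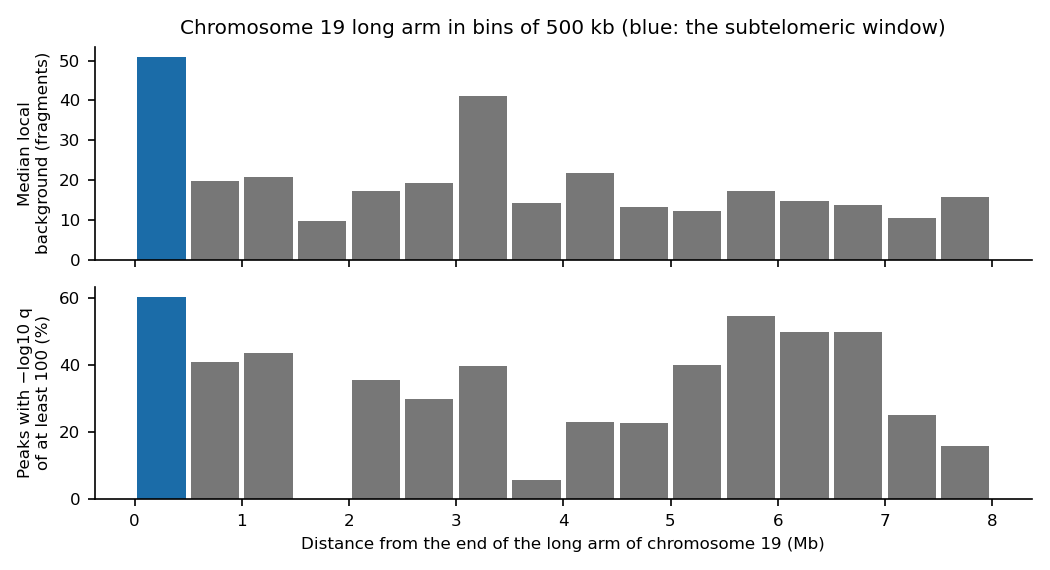
Median local background in fragments (top) and percentage of peaks reaching 100 by −log10 q-value (bottom), in bins of 500 kb from the end of the long arm of chromosome 19. The outermost bin (blue) has the highest bar in both panels, at 50.9 fragments and 60.5%, and the fourth bin is at 0% in the lower panel.

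Other windows with high backgrounds held few such peaks. High-background peaks numbered 5 on 5q, 3 each on 4q and 10q, 2 on 1q, and 1 each on 5p, 8q, 11q, 18p and 22q. Those of 5q lay from 181101392 to 181223980, well inside the window, with fold enrichments from 2.64 to 7.32. The remaining 29 windows had none.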

How the data were processed

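The 4 ATAC-seq libraries of HEK293 cells were trimmed with Trimmomatic and aligned with Bowtie2 to GRCh38.p10, had duplicates marked with Picard, and were used for peak calling with MACS2, per the labels and the paper's methods, which also name the removal of blacklisted regions. The authors deposited 1 peak list called on the merged libraries, with fold enrichment as a linear ratio, the −log10 p-value and −log10 q-value at the summit, and a score that follows the q-value. Columns of single samples number 0, and the depth per library is unknown from the list.

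Members were counted from the deposited positions, as 1-based coordinates, in scripts that used numpy 2.4.6, scipy 1.17.1 and pandas 2.3.3 under Python 3.11.15, with figures from matplotlib 3.10.9. Summit pileup and local background were recovered from fold and p-value under a Poisson distribution (pseudocount 1, misfit at most 0.001) and tested on simulated data. For peaks outside the subtelomeres without a whole-number pileup, the background of the nearest real-valued solution was used. Intervals are 95% Poisson for densities, Wilson for shares and order statistics for medians. For a ratio, the interval of the first group was divided by the value of the second, taken as fixed. No test between groups was possible, and values are descriptions. Members, lists and tests were chosen with earlier results of these data known. Peaks were named as the outermost of each arm and the 10, 10 and 5 highest by −log10 q-value, fold and width, and others after their values were seen. The GRCh38 genome and its gene models were not used here, so no sequences, motifs or genes are given. The alternatives included other q-value limits, window sizes and definitions of the ends.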

Additional observations from a re-analysis of the deposited data

How the results depend on the processing

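No paired analysis was possible because peaks were called on all 4 libraries together, and for the same reason single replicates could not be left out. Of 86 values recomputed under alternatives, 72 of them planned, 69 stayed within the interval of the reported value or, for the number of peaks, within 1.5 times. Merging changed none, because 0 peaks overlapped. The assembly's chromosome lengths, GC content, motifs and annotation were not run, because GRCh38 was not used here.

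When only peaks reaching 5 by −log10 q-value were kept, the density was 34.9 per Mb and the median width, fold enrichment and −log10 q-value 739 bp, 6.15 and 38.6, since weak peaks are removed. A window of 250 kb held 394 peaks with a median fold of 5.79 and −log10 q-value of 34.6, and one of 1 Mb held 1741 peaks, a median fold of 4.88 and a density 2.83 times that of the rest. As the median over arms, the density was 36.0 per Mb and its ratio 2.37. The ratio reversed, to 0.892, when the next 500 kb replaced the rest of the autosomes, as chosen after seeing the data. The outermost zone was 1.36 times as dense as the rest of the windows at 50 kb, and 1.13 times without the peaks that set long-arm ends. With short arms counted from their lowest peak start it was 2.48 times. That choice puts a peak of every short arm in the zone by definition, so the rise is partly built in. Counted in this way, the density of long against short arms was 1.12. Leaving out 19q, also chosen after seeing the data, kept 13 values within their intervals. Pooled depth limits the weakest peaks, with 16 fragments at the lowest summit.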
